A study of Mus musculus with 7 samples.

Results

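Wild type surface ectoderm from beside the mouse eye was described at the stage E12.5, in days after conception, from 3 libraries, replicates 2, 3 and 4, which are all the wild type libraries among the 7 of the series used here. Every gene whose mean over these 3 libraries was at least 10 normalized counts was included, which kept 14842 of the 47729 Ensembl genes listed. No library of another genotype entered any value. A normalized count is the number of reads on a gene divided by 1 size factor per library, so it compares 1 gene between libraries. Levels of different genes were compared per kilobase of annotated exons and scaled to the same total in each library, written as TPM, the transcript share of a gene. With 1 group there was nothing to test, and levels and their spread are given as a description.

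The surface ectoderm is the single or few-layered epithelium that covers the embryo. Beside the eye it forms the eyelid skin, the conjunctiva and the cornea, and from the conjunctiva it buds inward to make the lacrimal gland, which secretes tears. Its basal cells rest on a basement membrane, are joined by desmosomes and adherens junctions, and carry the transcription factor p63 (Trp63) together with Pax6, the master regulator of eye development. Under it lie mesenchyme from the neural crest, blood vessels and muscle precursors, and the lens, the retina and the brain are close by.

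Each library was made from 3 wild type E12.5 embryos pooled, so a replicate is a pool and not 1 animal. The sources used here name neither strain nor sex, and no treatment. Nothing in them says that the pools came from separate litters. Head cryosections were stained with hematoxylin, and the ectoderm between eye and brain was cut out with a laser by position and morphology, with no marker stain. cDNA was amplified by template switching from a very small RNA input and fragmented by tagmentation. The submitters set aside a further wild type library because other tissues had been cut with it, which they read from lower Pax6, Krt5 and other markers. Those markers helped to choose the libraries, so their even levels are no independent finding.

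The libraries held 8947136, 12504790 and 11287215 reads on genes for replicates 2, 3 and 4, with reads on 19959, 19318 and 19802 genes. All values below are normalized counts in that order of replicates unless a unit is named. The labelled tissue carried its markers. Krt5, the type II keratin of basal epithelial cells on chromosome 15 (chr15:101707070-101712898, minus strand, GRCm38), had 6627, 6668 and 8368, with a mean of 7221 ± 994 (SD, n = 3) and 797 TPM. Pax6 on chromosome 2 (chr2:105668900-105697364, plus strand) had 1659, 2003 and 2141, a mean of 1934 ± 248 (SD, n = 3) and 40.1 TPM. Trp63 on chromosome 16 (chr16:25683763-25892102, plus strand) had 1838, 1859 and 2044, a mean of 1914 ± 113 (SD, n = 3) and 55.1 TPM. None of the 3 genes reached a 2-fold range, and replicate 2 had the lowest value of each.

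Most genes were close between libraries. The range of a gene was taken as the difference of log2(normalized count + 1) between its highest and lowest library, and its median over 14842 genes was 0.42, or 1.34-fold. The median coefficient of variation was 15.2%, against 6.26% from counting error alone. A gene was called varied at a range of at least 1, which is 2-fold, and 2968 genes (20%) were. A gene was called steady at a range of at most 0.2, and 3165 genes (21.3%) were. In 8669 genes (58.4%) the exact 95% Poisson interval of the highest library lay wholly above that of the lowest, so their spread exceeded counting error. In bulk RNA of captured tissue, fewer cells of a type and less RNA per cell cannot be told apart.

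Spread fell with level up to the most abundant messages. Of the 5716 genes at 1 to 10 TPM 35.7% were varied, of the 6731 genes at 10 to 100 TPM 4.32%, and of the 1419 genes at 100 to 1000 TPM 0.916%. Of the 107 genes over 1000 TPM 8 were varied (7.48%; 3, 8 and 3 without 1 library, in the order of replicates 2, 3 and 4), the 7 haemoglobin genes and Tuba1a. Between 10 and 100 normalized counts the median coefficient of variation was 37.8%, of which counting error alone gives 17.8%. Between 100 and 1000 normalized counts these values were 12.8% and 5.33%, so counting error is a larger part of the spread of weak genes. A range over fewer libraries can only narrow, and 1751, 1712 and 1960 genes (11.8%, 11.5% and 13.2%) were varied without replicates 2, 3 and 4. For lists of genes, the count of varied members without 1 library is given below in that order where it is lower by more than 1.5 times. A list's share of varied genes is to be read against the 20% of all kept genes and against the share at its level.

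**Figure D1:**
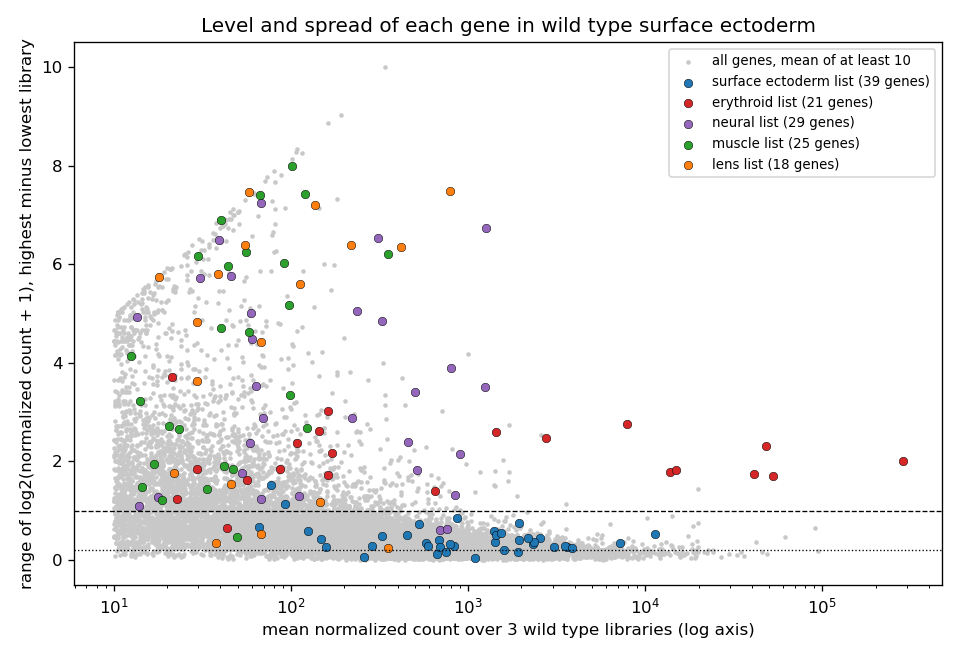
Each grey point is 1 of the 14842 genes, with its mean normalized count over the 3 wild type libraries on a log axis and the range of log2(normalized count + 1) between its highest and lowest library on the vertical axis. Dashed and dotted lines mark the ranges of 1 and 0.2 that define varied and steady genes. Of the surface ectoderm list (blue) 2 of 39 genes lie above 1, against 20 of 21 erythroid, 27 of 29 neural, 24 of 25 muscle and 15 of 18 lens genes.

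The most abundant messages were those of haemoglobin, the mitochondrial genome and the translation machinery. Hbb-y, the embryonic beta-type globin, had the highest level of all, 103749 TPM, ahead of Hba-a1 (15096 TPM), Hba-a2 (14333 TPM) and Hba-x (11858 TPM), the alpha-type globins. Haemoglobin genes took 7.01%, 3.97% and 1.84% of reads (95% Wilson intervals 6.99 to 7.03%, 3.96 to 3.98% and 1.83 to 1.85%, counting error only), and 24.4%, 15.2% and 7.47% of TPM. TPM of a gene in a single library therefore falls where haemoglobin is high, and levels between genes are given as the mean TPM. Hba-a1 and Hba-a2, like Hbb-bs and Hbb-bt, are near-identical copies whose reads may be split or lost.

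Outside haemoglobin, none of the 20 genes of highest level was varied. Ftl1, the ferritin light chain that stores iron, had 7491 TPM, Eef1a1, the translation elongation factor, 4716 TPM, and Ptma, prothymosin alpha, 3978 TPM. Mif, a cytokine, had 3197 TPM and S100a11, a calcium-binding protein, 3149 TPM. Eef1a1 had 46233, 50410 and 49525 normalized counts. Ptma had 22569.5, 25422 and 24295, and both genes were steady. Ribosomal protein genes took 4.59%, 5.04% and 5.16% of reads, and of 84 such genes 0 were varied and 58 steady. Mitochondrially encoded genes took 1.85%, 1.75% and 2.11% of reads. Reads of ribosomal protein genes, of Rn18s-rs5 and of Lars2 can come from near-identical sequences, and their levels are uncertain. The 10 genes with the most reads took 9.70%, 7.12% and 5.70% of each library, and the 1000 genes with the most reads 51.5%, 50.8% and 49.7%.

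Of 2363 genes with a mean of at least 1000 normalized counts 24 were varied (12, 20 and 12 without 1 library). Haemoglobin and haem synthesis genes made up much of that set. Alas2, the first enzyme of haem synthesis in red cells, had 4979, 2402 and 897. Slc4a1, the red cell anion exchanger, had 2525, 1359 and 414, and both were highest in replicate 2 and lowest in replicate 4. Tuba1a, an alpha-tubulin abundant in growing neurons, had 32896, 12118 and 14595. Fabp7, a fatty acid binding protein of radial glia, had 3216, 29.2 and 532. Both were highest in replicate 2 and lowest in replicate 3. The mesenchymal proteoglycan Dcn was highest in replicate 4, with 957, 639 and 1666. 4631405K08Rik, the host transcript of miR-205 that RefSeq lists as Mir205hg, had 664, 1881 and 1713, with replicate 2 far below the others. Map1b, Ckb, Pea15a and Tubb2b were also among the 24 and highest in replicate 2, and these genes, like the 4631405K08Rik transcript, were singled out after their values were seen.

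Genes of the ectoderm itself seldom reached a 2-fold range, but fewer were steady than among genes of their level. Of 40 listed surface ectoderm genes 39 were kept, with a median level of 50.2 TPM against 12.7 over all kept genes. Of the 39, 2 were varied (Pkp1 and Dsc3; 0, 1 and 1 without 1 library) and 5 steady. The varied share was 5.13%, against 20% of all kept genes and 4.32% of genes at 10 to 100 TPM. The steady share was 12.8%, against 21.3% and 28.6%. The median range was 1.28-fold, against 1.34-fold over all kept genes. Lowest in replicate 2 were 28 of the 39, against 5189 of all 14842 kept genes. The summed level of the list was 58588, 64952 and 72518 normalized counts, lowest in replicate 2 and highest in replicate 4. Haemoglobin reads ran the opposite way, and a link was not tested. With each library scaled to its reads without haemoglobin genes the sums were 59310.4, 64682 and 71934, in the same order. That scaling moved the libraries little, by factors of 1.012, 0.996 and 0.992 relative to the authors' scaling. Dsg3, a desmosomal cadherin of mature skin, did not reach the mean of 10, with 11, 0 and 2.81.

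Keratins of basal and simple epithelia were present side by side. Krt15, a keratin of basal progenitors, led them at 1572 TPM, with 9689, 10647 and 13902 normalized counts. Krt14, the partner of Krt5, had 2112, 1384 and 2326, lower in replicate 3 than in the others. The simple epithelial keratins Krt8, Krt18 and Krt19 had means of 2359.7 ± 332, 1938 ± 279.6 and 2330.3 ± 265 (SD, n = 3), or 292, 327 and 305 TPM. Keratins of differentiated layers were low. Krt1 had 89.1, 159 and 152. Krt10 had 179, 205 and 124, and both stayed within a 2-fold range. The corneal keratin Krt12 was detected in replicate 3 alone, with 0, 3.44 and 0, and Krt2, Krt76, Krt78 and Krt6b had 0 reads in every library. With 0 reads in 12504790, up to 3 reads, or 2.58 normalized counts in that library, remain possible by counting error.

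Periderm is the thin outer layer that covers embryonic skin. Of 16 periderm genes 10 were kept and 3 varied (Krt17, Krt6a and Krt80). That share of 30% stood against 20% of all kept genes and 4.32% of genes at 10 to 100 TPM, where the list's median lay. Sfn, the 14-3-3 protein of stratifying epithelia, had 3078, 3519.8 and 3403 and was steady, at 499 TPM. Gabrp, a subunit of the GABA-A receptor, had 2678, 2857 and 2467. Krt17 had 308, 104 and 285. Krt6a had 30.5, 104 and 85.1, with replicate 3 lowest for Krt17 and highest for Krt6a. Late differentiation genes were near 0. Sprr1a had 0, 1.72 and 5.61. Muc1 had 0, 0 and 1.87, which is at most 2 reads in a library.

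Of 35 kept junction genes 3 were varied (Tjp3, Pkp1 and Dsc3; 0, 2 and 1 without 1 library), with a median range of 1.28-fold and at a median of 50.2 TPM. Ctnnb1, beta-catenin, which joins cadherins to actin and also carries the Wnt signal, had 13963, 15699 and 16723 at 721 TPM. Cldn6, a claudin of embryonic epithelia, had 3314, 3961 and 3507 at 504 TPM. Epcam, the epithelial adhesion molecule, had 3075, 3694 and 3746 at 387 TPM. Cdh1, E-cadherin, had 2149.5, 2569 and 2911. Replicate 2 was the lowest in each of these 4 genes. Of 38 kept basement membrane genes 3 were varied (Nid2, Lamb3 and Col7a1; 2, 1 and 0 without 1 library). Col18a1, the collagen of the basement membrane zone, had 5044, 5309 and 5426. Itgb5, an integrin subunit, had 4829, 4561 and 4693, and both were steady.

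Promoter sequences of the 3 surface ectoderm genes of highest mean that held a match to GCCNNNGGC, the palindrome bound by AP-2 factors, within 120 bases before the start are shown because AP-2 genes were among the expressed regulators. The sequences are RefSeq's on GRCm38.p6, 5′ to 3′ on the gene's strand, with the match in capitals. The match was found in 120 bases before the start of Wnt6 (chr1:74771772-74771891, plus strand), Krt18 (chr15:102028096-102028215, plus strand) and Dsp (chr13:38151174-38151293, plus strand).
Wnt6: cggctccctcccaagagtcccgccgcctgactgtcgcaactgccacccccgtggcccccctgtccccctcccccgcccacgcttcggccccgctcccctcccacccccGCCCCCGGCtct
Krt18: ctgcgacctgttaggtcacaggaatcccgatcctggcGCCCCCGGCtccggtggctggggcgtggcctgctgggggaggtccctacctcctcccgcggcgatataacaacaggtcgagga
Dsp: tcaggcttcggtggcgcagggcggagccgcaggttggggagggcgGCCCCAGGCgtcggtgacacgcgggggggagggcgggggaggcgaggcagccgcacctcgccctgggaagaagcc
Over the longer window from 250 bases before to 50 after the start, 6 of 21 surface ectoderm genes with a promoter in the table (28.6%) held GCCNNNGGC on either strand, against 25.5% of kept genes, so the share was near that background.

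Of 338 listed factor genes 304 were kept, of which 84 (27.6%) were varied, against the 20% of all kept genes, and 51 steady. The number varied was 47, 42 and 61 without 1 library. Ybx1, a cold shock domain protein that binds DNA and RNA, had the highest level, 1125 TPM, and Id3, an inhibitor of bHLH factors, followed at 679 TPM. Id1 had 298 TPM, Hmga1, an architectural chromatin protein, 276 TPM and Tcf3, the bHLH partner that Id proteins bind, 222 TPM. In the order of the 25 factors of highest level, measured as normalized counts per kilobase, 5 of 24 neighbouring pairs did not overlap between libraries, all of them among the first 7 genes, so neighbouring ranks from Jund down are not separated by these libraries. The scale per kilobase keeps the library order of a gene, and TPM sets the rank.

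Factors of basal epithelium were within a 2-fold range. Beside Trp63, its relative Trp53 had 1863, 2475 and 2108 and Trp73 had 151, 193 and 153. Grhl3, a grainyhead factor of epithelial barriers, had 739.7, 738 and 613, and its relative Grhl2 had 546, 663 and 572. Of 3 kept AP-2 genes, factors of surface ectoderm and neural crest, none was varied. Tfap2b had 1256, 1398 and 1369 and was steady. Tfap2c had 361, 483 and 517, and Tfap2a had 171, 144 and 127. In TPM, Tfap2b (51.1) stood above Tfap2c (30.0) and Tfap2a (7.16), while Tfap2e had 0 reads. Of 13 kept genes in the list of p53, grainyhead, Ovo and epithelial ETS factors 1 was varied (0, 1 and 1 without 1 library), the ETS factor Ehf, with 17.1, 55.9 and 90.7.

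Ocular patterning factors split into an even set and an uneven one. Of 32 kept genes 12 were varied (37.5%, against 20% of all kept genes; 3, 6 and 8 without 1 library), with a median range of 1.47-fold. Otx1, a head homeobox gene, had 1960.3, 2809.6 and 2741. Meis1, which binds enhancers of Pax6, had 2671, 3341 and 2532. Eya2, a transcriptional coactivator of eye and ear development, had 878, 935 and 1004 and was steady, and Irx5 had 959, 994 and 1159. Sox9, expressed in lacrimal buds and in cartilage precursors alike, had 1841, 1854 and 2118. These genes were close, whereas Six2, Msx1 and Msx2 were not. Six2, a homeobox gene of facial mesenchyme and kidney progenitors, had 493, 1030.0 and 732, with replicate 3 above the others. Msx1 and Msx2 are targets of BMP signalling. Msx1 had 522, 322 and 177. Msx2 had 458, 124 and 195, and both were highest in replicate 2. Barx1, a homeobox gene of facial mesenchyme, had 75.7, 126 and 34.6, with replicate 3 highest. Sox2, a factor of neural and placodal cells, had 132, 44.7 and 73.9.

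Among Sox and forkhead genes Sox4 and Sox11, factors of progenitor cells, had the highest levels, 115 and 115 TPM. Sox11 had 4482, 3610.1 and 3834 normalized counts and Sox4 had 2422, 2179 and 2311, both close between libraries. Foxc1, a gene of periocular mesenchyme mutated in anterior eye disease, had 1045, 1399.7 and 1539. Of 37 kept Sox and forkhead genes, at a median of 7.43 TPM, 11 were varied (6, 7 and 8 without 1 library). That share of 29.7% stood against 20% of all kept genes and 35.7% of genes at 1 to 10 TPM. The widest ranges were in weak genes such as Sox3 (45.2, 0 and 11.2) and Sox1 (29.3, 0 and 11.2), both neural progenitor factors. Of 49 kept zinc finger genes 14 were varied (9, 6 and 12 without 1 library), a share of 28.6% against 20% of all kept genes and 35.7% of genes at 1 to 10 TPM, where the median of the list lay. Bcl11b, a factor of skin and of neurons, had 1221, 1569 and 1468, and Ctcf, the insulator protein, had 1319.5, 1365 and 1448. Zic1, a gene of dorsal neural tissue, had 216, 4.30 and 64.5, highest in replicate 2. Of 55 kept homeobox genes 26 were varied (47.3%, against 20% of all kept genes; 14, 14 and 20 without 1 library). Lhx1 had 132, 0 and 3.74. Lhx5 had 119.6, 0 and 5.61, and both of these LIM homeobox genes of neurons were high in replicate 2 alone. Isl1, a factor of sensory and motor neurons, had 53.7, 0 and 151. Rax, a gene of the retinal primordium, had 11, 2.58 and 74.8, and these latter genes were highest in replicate 4.

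Of 141 listed symbols 138 matched the table and 133 were kept, of which 33 (24.8%, against 20% of all kept genes) were varied and 26 steady. The number varied was 21, 14 and 26 without 1 library. Gas1, a coreceptor for hedgehog ligands, had the highest level, 376 TPM, with 4422, 4480.1 and 4919.5, and Gpc3, a glypican, followed at 300.3 TPM. Smo, the transducer of hedgehog signals, had 2858, 2844 and 2672 at 119 TPM and was steady. Of the hedgehog ligands Shh had 57.4, 21.5 and 44.9 and was varied, and Ihh was under the mean of 10, with 6.10, 0 and 1.87. The level of Shh was 3.45 TPM. Of 24 neighbouring pairs in the order of the 25 highest receptors 5 did not overlap between libraries.

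FGF signalling through Fgfr2 drives budding of the lacrimal gland, and its ligand Fgf10 comes from mesenchyme. Fgfr2 had 2748, 2806 and 3233 at 68.6 TPM. Fgfr1 had 729, 651 and 636 at 16.3 TPM. Of 4 kept FGF receptors Fgfr3 alone was varied (0, 0 and 1 without 1 library), with 514, 187 and 265, highest in replicate 2. Fgf10 had 40.3, 33.5 and 14.0 at 1.49 TPM. FGF ligands were weak, at a median of 2.33 TPM, and 11 of 13 kept genes were varied (8, 4 and 6 without 1 library), a share of 84.6% against 20% of all kept genes and 35.7% of genes at 1 to 10 TPM. Fgf9, an epithelial ligand, led them at 19.2 TPM and had 344, 230.4 and 525. Fgf13, an intracellular member of the family, had 232, 138 and 313, and both were lowest in replicate 3.

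Wnt receptors were led by the frizzled gene Fzd2 at 94.1 TPM and 1362, 1451 and 1469.6 normalized counts. Lgr4, a receptor for R-spondins, had 1196, 1398 and 1709, and the Wnt coreceptor Lrp6 had 514, 575 and 677. Of 18 kept genes 3 were varied (16.7%, near the 20% of all kept genes; 2, 0 and 2 without 1 library). Among them was Fzd10, with 738, 325 and 438. Among Eph receptors Ephb4, the receptor of ephrin-B2, was among the 10 steadiest genes of mean 100 or more, with 1572, 1573 and 1563. Epha3 had 538, 106 and 105. Epha5 had 267, 50.7 and 58.9, and in both replicate 2 was at least 4 times the others. Of 12 Eph receptors 4 were varied (33.3%, against 20% of all kept genes; 1, 3 and 4 without 1 library). Among TGF-beta family receptors Bmpr1a, a BMP receptor, led at 65.9 TPM with 1798, 1783 and 1645, and 1 of 12 was varied (0, 1 and 0 without 1 library), the endothelial receptor Acvrl1. Ednrb, the endothelin receptor of neural crest cells, had 765, 74.8 and 172.

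Of 167 listed symbols of ligands and secreted antagonists 166 matched the table and 143 were kept, at a median of 7.16 TPM. Of these 47 (32.9%, against 20% of all kept genes) were varied and 9 steady (6.29%, against 21.3%). Both shares were near those of genes at 1 to 10 TPM, of which 35.7% were varied and 6% steady. The number varied was 25, 30 and 33 without 1 library. Mdk, the heparin-binding growth factor midkine, had 2239 TPM, and Wnt6, a Wnt of surface ectoderm, 428 TPM. On the scale of normalized counts per kilobase the libraries of Mdk lay above those of Wnt6, and those of Wnt6 above those of Igf2, the next gene, while the other 17 neighbouring pairs of the 20 highest overlapped. Igf2, an imprinted growth factor, had 5932, 6091 and 7193. Pdgfa and Pdgfc are ligands of PDGF receptor alpha, a receptor of mesenchyme. Pdgfa had 2602, 3374 and 3407. Pdgfc had 3825, 4746 and 4289.9, and in neither did the range reach 2-fold. Cxcl14, an epithelial chemokine, had 2010.4, 1530.3 and 1398.

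Several Wnts were present together. Wnt6 had 3589, 3792 and 4260.0. Wnt4 had 1814, 2256 and 2482, and Wnt7b had 2041, 1622 and 1529. These Wnts were close between libraries, and Wnt1 and Wnt3a of the dorsal neural tube were not. Wnt1 had 169.7, 0 and 2.81. Wnt3a had 116, 23.2 and 42.1, and both were highest in replicate 2. Of 20 kept Wnt and R-spondin genes 8 were varied (40%, against 20% of all kept genes; 2, 6 and 6 without 1 library). Antagonists of Wnt and BMP signals stood beside the ligands. Sostdc1, which blocks both, had 1171, 1584 and 1313 at 184 TPM. Dkk1, a secreted Wnt inhibitor, had 35.4, 270.0 and 171, with replicate 2 far below the others. The BMP ligands were close. Bmp7 had 1534, 1493 and 1646 at 93.5 TPM and was steady. Bmp4 had 322, 365 and 400.4 at 39.1 TPM. Of 15 kept TGF-beta family ligands 3 were varied (20%, the same share as over all kept genes; 1, 2 and 2 without 1 library). Efnb2, the ephrin that binds Ephb4, had 1910.3, 1948 and 1845, and Sema3a, a repulsive guidance cue, had 1339, 1769 and 1684. Of 6 kept Notch and hedgehog ligands 4 were varied (3, 2 and 4 without 1 library), while the Notch ligands Jag2 and Jag1 were not. That share of 66.7% stood against 20% of all kept genes and 35.7% of genes at 1 to 10 TPM, where the list's median lay. Jag2 had 955, 821 and 1206, and Jag1 had 364, 441 and 467.

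**Figure D2:**
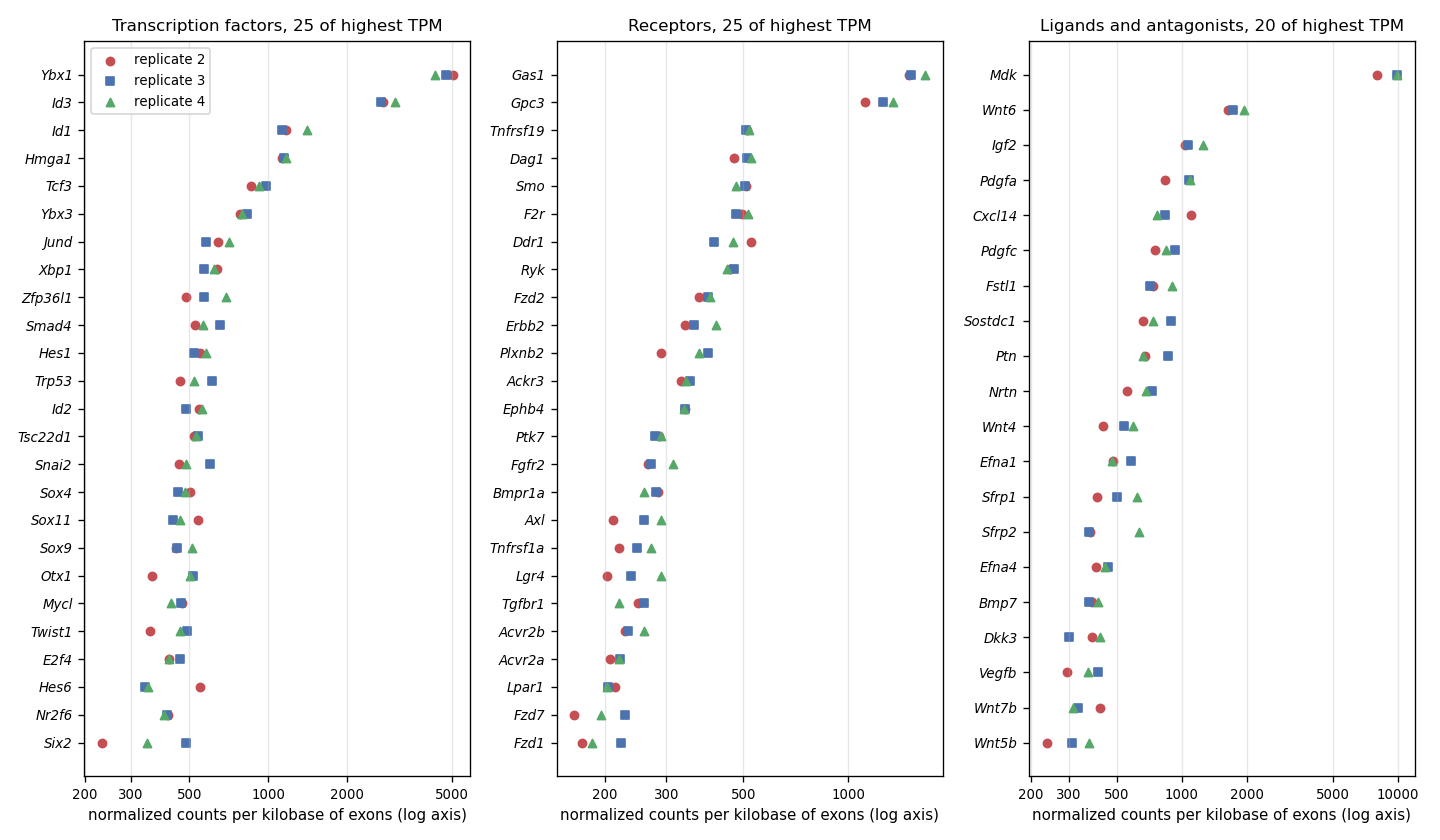
Levels of the 25 transcription factors, 25 receptors and 20 ligands or antagonists of highest mean TPM, as normalized counts per kilobase of exons on a log axis, with 1 marker per wild type library. Ybx1, Gas1 and Mdk lead their panels, the 3 libraries of most genes lie close together, and below the first few genes neighbouring ranges overlap, while Six2 spreads from 493 to 1030.0 normalized counts.

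Genes of growth and metabolism stayed within a 2-fold range, as did nearly all genes of their level. Of 30 cell cycle genes, 25 glycolysis and hypoxia genes and 16 reference genes 0 were varied, against 20% of all kept genes. Their median range was 1.28-fold, 1.25-fold and 1.15-fold, and their median level 103, 123 and 325 TPM. Since strong genes vary less than weak ones, these lists are not set apart by that. Of genes at 100 to 1000 TPM 0.916% were varied and 57.8% steady. Steady were 13.3% of the cell cycle list, 32% of the glycolysis and hypoxia list and 50% of the reference list. Of the 30 cell cycle genes 26 were lowest in replicate 2, against 5189 of all 14842 kept genes. Ccnd2, a D-type cyclin, had 13828, 19104 and 19254. Top2a, a topoisomerase of dividing cells, had 2637, 3362 and 3431, and replicate 2 was lowest in both. Gapdh, a glycolytic enzyme, had 22311, 25555 and 24264, and Slc2a1, a glucose transporter, had 3064, 2957 and 3944. Of 25 kept immediate early and stress genes 3 were varied (Egr1, Gadd45b and Atf3; 2, 2 and 3 without 1 library), and Fos, which rises within minutes of handling, had 37.8, 38.7 and 52.4 at 4.44 TPM. The steadiest genes of mean 100 or more included Hist1h1b (442, 441 and 442), Casc3 (629, 631 and 631) and Psmc4 (2645, 2635 and 2632). They were picked for their narrow range, and Hist1h1b may share reads with other linker histones.

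The captured RNA also held messages listed for mesenchyme, vessels and cartilage, and the cells they came from were not identified. Mesenchymal genes were plentiful, with 29 of 30 kept at a median of 33.0 TPM. Their summed level was 34706, 37106 and 42561, and 6 of 29 were varied (4, 1 and 3 without 1 library), a share of 20.7% that is near the 20% of all kept genes. Osr2, a factor of eyelid and palate mesenchyme, had 4169.7, 5595 and 5412 at 339 TPM. Col3a1, a fibrillar collagen, had 3951, 5388 and 4992, and the intermediate filament gene Vim had 4269, 4001 and 4339.5. These abundant genes were close between libraries. The mesenchymal homeobox gene Alx1 was highest in replicate 3, with 233, 685 and 355, and Col6a1 lowest there, with 546, 339.6 and 884. Endothelial genes were weaker, at a median of 4.06 TPM, with sums of 1672, 1415 and 1682. Of 18 kept endothelial genes 6 were varied (3, 2 and 3 without 1 library). That share of 33.3% was above the 20% of all kept genes but near the 35.7% of genes at 1 to 10 TPM. Egfl7, a secreted protein of vessels, had 200.2, 250.2 and 233. Cldn5, a claudin of vessel walls, had 187, 57.6 and 59.9, highest in replicate 2. Cartilage genes, at a median of 7.34 TPM, had sums of 6126, 5343 and 6575. Of 16 kept cartilage genes 8 were varied (8, 0 and 8 without 1 library), so each of those ranges rested on replicate 3. That share of 50% stood against 20% of all kept genes and 35.7% of genes at 1 to 10 TPM. Col9a3, a cartilage collagen, had 342, 55.9 and 337. Acan, the cartilage proteoglycan, had 37.8, 0 and 42.1, and replicate 3 was lowest in both.

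Red cells circulate through the tissue, and their messages ran in 1 order through the libraries. Of 21 kept erythroid genes 20 were varied (12, 20 and 7 without 1 library), and in all 21 replicate 2 was highest and replicate 4 lowest. Among all 14842 kept genes, varied or not, replicate 2 was highest in 5106 and replicate 4 lowest in 4535. Varied with replicate 2 highest were 10.4% of all genes, and varied with replicate 4 lowest 5.86%, each against 20 of the 21. Hbb-y had 464873, 271255 and 114810. Hba-x, the embryonic alpha-type globin, had 81739.5, 46531 and 16405, and Hbb-bt, an adult beta-globin, had 25348, 12151 and 7137. Among the 7 globin genes the ratio of replicate 2 to replicate 4 ran from 3.27 for Hba-a1 to 6.81 for Hbb-bh1, an embryonic beta-type globin. Klf1, a red cell factor that binds CACCC, had 148, 70.5 and 40.2.

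Promoters are shown for the 3 erythroid genes of highest mean with a match to CACCC or AGATAA. The match could lie on either strand in the 120 bases before the start. A link between these letters and the order of the libraries was not tested. Sequences are RefSeq's on GRCm38.p6 with matches in capitals, from Hbb-y (chr7:103853208-103853327, minus strand), Hba-a1 (chr11:32283552-32283671, plus strand) and Hba-x (chr11:32276480-32276599, plus strand).
Hbb-y: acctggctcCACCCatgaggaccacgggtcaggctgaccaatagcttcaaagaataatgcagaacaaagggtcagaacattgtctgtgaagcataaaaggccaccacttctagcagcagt
Hba-a1: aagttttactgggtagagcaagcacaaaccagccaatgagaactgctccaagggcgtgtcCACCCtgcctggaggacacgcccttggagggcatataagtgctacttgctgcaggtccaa
Hba-x: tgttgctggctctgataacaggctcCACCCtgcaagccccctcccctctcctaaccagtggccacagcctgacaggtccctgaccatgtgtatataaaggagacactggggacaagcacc
Each held CACCC and none held AGATAA in these letters. Only AGATAA was searched, and TGATAA, which differs in its first letter and stands in the Hba-x sequence, was not counted. From 250 bases before to 50 after the start, CACCC was found in 14 of 16 erythroid promoters (87.5%, 95% Wilson interval 64.0 to 96.5%) against 63.2% of kept genes, and AGATAA in 6 of 16 (37.5%, 18.5 to 61.4%) against 6.20%. A match is a description of letters and not a bound site.

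Of 29 kept neural genes 27 were varied (23, 16 and 25 without 1 library). Both varied and lowest in replicate 3 were 25 of the 29, against 10.1% of all genes. Among varied genes alone, 25 of the 27 were lowest in replicate 3, against 50.7% of all varied genes. Of the 29, 23 were highest in replicate 2, against 5106 of all 14842 kept genes. Their summed level was 18120.3, 3279 and 8200.1. Tubb3, the neuronal beta-tubulin, had 2608, 228 and 914. Stmn2, a neuronal microtubule regulator, had 1266, 509.8 and 762, and Rtn1, a reticulon, had 1850.5, 123 and 442. Replicate 3 was lowest in each of them. Ina, a neuronal filament, had 649, 6.02 and 275. Gap43, a growth cone protein, was 1 of the 2 that stayed within a 2-fold range, with 839.8, 551 and 694.

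Dorsal midbrain, hindbrain and choroid plexus genes were looked at after their values were seen, because several of the widest ranges belonged to them. Of 18 kept genes 17 were varied, and sums were 3193, 436 and 560.3. Ttr, transthyretin of the choroid plexus, had 464, 0 and 19.6. En2, a gene of the midbrain and hindbrain boundary, had 262, 0.860 and 14.0. Msx3, a gene of the dorsal neural tube, had 218, 0 and 0, which left replicate 2 as its single source. Robo3, a receptor of commissural axons, had 323, 0 and 1.87. High values were confined to replicate 2 for these 4 genes. Among all kept genes 16 had reads in replicate 2 alone, 1 in replicate 3 alone and 6 in replicate 4 alone. Those of replicate 2 held the neural factors Atoh1 and Prdm13. A gene with reads in 1 library alone passed the filter on the mean only by its high value there. Such genes were therefore varied by construction, and their wide range is no separate finding. Atoh1 had 118, 0 and 0, and Prdm13 had 114, 0 and 0.

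Lens crystallins were another mark of replicate 2. Of 18 kept lens genes 15 were varied (83.3%, against 20% of all kept genes; 9, 14 and 13 without 1 library), with sums of 6423, 727 and 855, and crystallin genes took 0.0549%, 0.00306% and 0.00417% of reads. Cryaa, the alpha-crystallin of lens fibres, had 2342, 16.3 and 12.2. Cryba1, a beta-crystallin, had 1228, 18.9 and 14.0, and Crybb1 had 629.8, 18.1 and 6.55. Replicate 2 was more than 30 times the other libraries in each of them. Maf, a lens factor that is also expressed elsewhere, did not follow, with 317, 375 and 364, nor did the lens filament gene Bfsp2, with 54.9, 67.9 and 79.5. Mip, a water channel of lens fibres, was near 0 in every library, with 1.22, 4.30 and 0. Macrophage genes were also highest in replicate 2, with sums of 2823, 747 and 1439 and 14 of 15 varied (5, 9 and 11 without 1 library). That share of 93.3% stood against 20% of all kept genes and 35.7% of genes at 1 to 10 TPM, where the list's median lay. Pf4, a chemokine of megakaryocytes and some macrophages, had 707, 96.3 and 230.1. The complement gene C1qb had 204, 81.7 and 136, whereas Lyz2, a myeloid lysozyme, had 284, 30.1 and 288, as high in replicate 4 as in replicate 2.

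Replicate 4 carried a different set. Of 25 kept skeletal muscle genes 24 were varied, with sums of 853, 308 and 3753, and 22 of the 25 were highest in replicate 4. Both varied and highest there were 21 of the 25, against 5.46% of all genes. Actc1, the actin of embryonic muscle, had 156, 11.2 and 896. Myog, the factor of muscle differentiation, had 48.8, 0 and 255. Ttn, which encodes the sarcomere spring titin, had 37.8, 2.58 and 233, and replicate 4 was highest in each. Pax7, a factor of muscle progenitors and of crest, was not highest there, with 17.1, 27.5 and 11.2.

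Promoters of the 3 muscle genes of highest mean with a match to CANNTG, the E-box that muscle bHLH factors bind, in 120 bases before the start are shown with the E-box in capitals, from Mylpf (chr7:127211488-127211607, plus strand), Myog (chr1:134289884-134290003, plus strand) and Tnni1 (chr1:135799301-135799420, plus strand), again from RefSeq on GRCm38.p6.
Mylpf: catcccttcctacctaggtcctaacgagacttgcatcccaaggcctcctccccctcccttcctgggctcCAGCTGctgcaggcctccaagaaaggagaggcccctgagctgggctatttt
Myog: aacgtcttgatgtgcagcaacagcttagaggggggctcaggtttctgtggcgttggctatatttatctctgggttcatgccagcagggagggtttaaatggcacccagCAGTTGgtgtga
Tnni1: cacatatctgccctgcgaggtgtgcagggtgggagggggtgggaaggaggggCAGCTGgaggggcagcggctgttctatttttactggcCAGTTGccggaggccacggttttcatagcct
Over the longer window 18 of 21 muscle promoters held CANNTG (85.7%, 95% Wilson interval 65.4 to 95.0%), against 62.8% of kept genes and 72.1% of the 27025 genes in the table. CANNTG is short enough to be found in most promoters.

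Several pigment cell genes were highest in replicate 4. Pmel, a melanosome protein, had 225, 209 and 1703. Dct, an enzyme of melanin synthesis, had 65.9, 90.3 and 522, and its relative Tyrp1 had 18.3, 18.1 and 114. Of 14 kept Schwann cell and melanocyte genes 10 were varied (9, 9 and 4 without 1 library). That share of 71.4% stood against 20% of all kept genes and 35.7% of genes at 1 to 10 TPM, where the list's median lay. Highest in replicate 4 were 10 of the 14, against 4890 of all 14842 kept genes. The sum of that list was nevertheless highest in replicate 2, with 5365, 1415 and 4420.0, where its members Fabp7 and Ednrb were highest. Erbb3, the neuregulin receptor of crest cells, was also highest in replicate 2 but stayed within a 2-fold range, with 538, 474 and 459. Atoh7, a factor of the first retinal neurons, had 8.54, 12.9 and 63.6. Of 11 kept retinal and pigment epithelium genes, at a median of 4.43 TPM, 6 were varied (5, 5 and 2 without 1 library). That share of 54.5% stood against 20% of all kept genes and 35.7% of genes at 1 to 10 TPM. All 6 varied genes of this list were highest in replicate 4, against 27.3% of all varied genes. Aldh1a3, a retinoic acid synthesis enzyme of the same list, had 1835, 2662 and 2033, and Sfrp1, a Wnt inhibitor, had 1767, 2198 and 2701. Neither is particular to retina, and both outweighed the rest in the sum of the list, 4735, 6161 and 6282. Rpe65, an enzyme of mature pigment epithelium, had 0 reads in every library.

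Sensory ganglion and neutrophil granule genes were listed after their values were seen. Of 10 kept ganglion genes 10 were varied, with sums of 358, 101 and 1369. Prph, a filament of peripheral neurons, had 4.88, 6.88 and 160.0. Pirt, a sensory channel regulator, had 11, 0 and 174. Insm1, a factor of endocrine and neural precursors, went the other way, with 159, 44.7 and 43.0. Of 9 kept granule genes 8 were varied, with sums of 87.9, 152 and 1253. S100a8, a calcium-binding protein of neutrophils, had 0, 24.1 and 279. Camp, the cathelicidin, had 0, 0 and 178. Ltf, lactoferrin, had 0, 14.6 and 109. The 3 genes were at 0 in replicate 2, where macrophage genes were highest. The widest range of all kept genes belonged to Oc90, an otoconial protein of the inner ear, with 0, 0 and 1023.

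**Figure D3:**
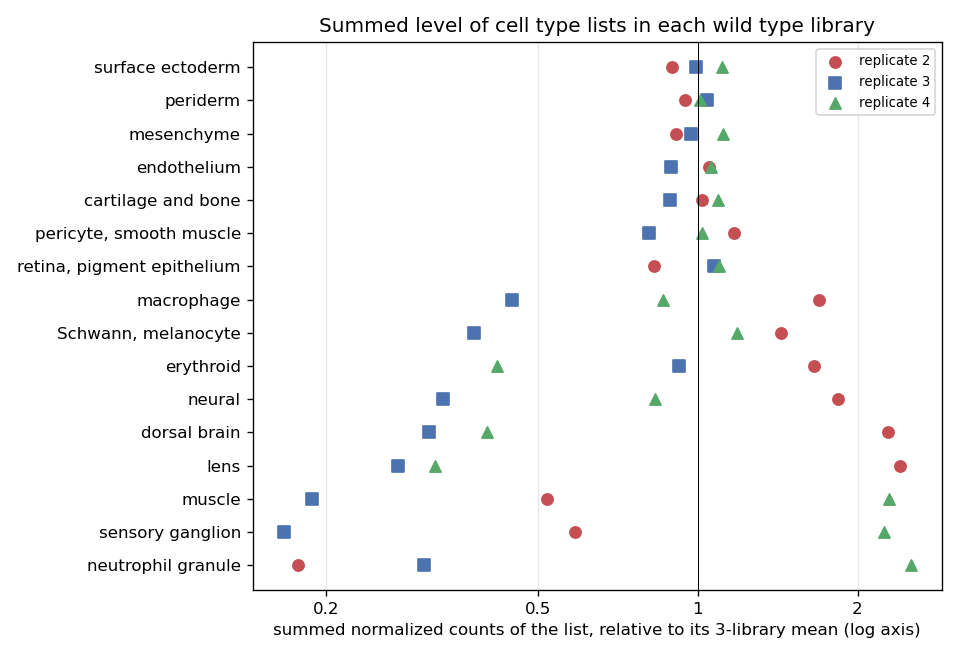
Summed normalized counts of each cell type list in each wild type library, divided by the mean of the 3 libraries, on a log axis. Surface ectoderm, periderm, mesenchyme and endothelium lists stay near 1, replicate 2 is highest for erythroid, neural, dorsal brain, lens and macrophage lists, and replicate 4 for muscle, sensory ganglion and neutrophil granule lists.

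Replicate 3 was lowest in 50.7% of the varied genes and had 0 reads in 187 of them, against 25 in replicate 2 and 52 in replicate 4, although it was the deepest library. Over all genes 4.10% were varied with replicate 3 highest and 4.00% varied with replicate 2 lowest. The genes of widest range among those highest in replicate 3 were weak, such as Kcnf1, a potassium channel subunit, with 0, 50.7 and 8.42. Tac1, the precursor of substance P, had 25.6, 168 and 3.74. Xist, the RNA that coats the inactive X chromosome, had 632, 1491 and 311, highest in replicate 3. The Y-linked gene Ddx3y had 363, 64.5 and 414. Uty, also on the Y chromosome, had 169.7, 12.0 and 210.5, and both were lowest in replicate 3. All 3 libraries held both kinds of message, and the sources used here do not give the sexes in a pool. Embryo sex and the other differences between libraries cannot be told apart with 1 pool each.

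**Figure D4:**
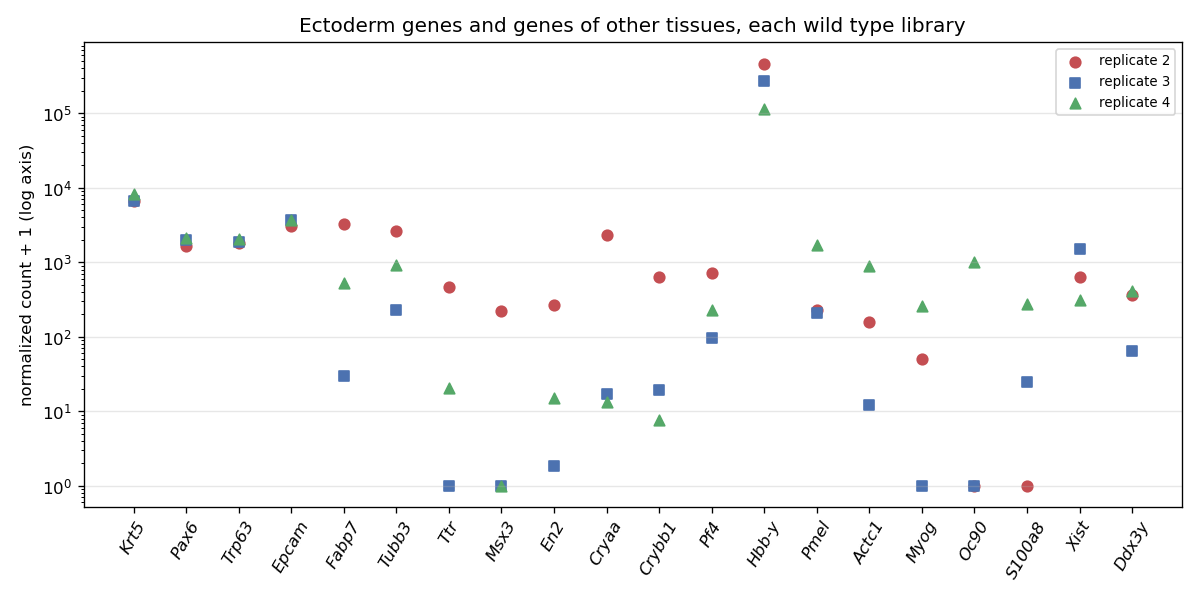
Normalized count + 1 on a log axis for 4 ectoderm genes (left) and 16 genes of other tissues or of embryo sex, with 1 marker per wild type library. The markers of Krt5, Pax6, Trp63 and Epcam nearly coincide, whereas Cryaa runs from 12.2 to 2342 and Oc90 from 0 to 1023 normalized counts.

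Promoters were found for 1888 varied and 2462 steady genes. TATAAA, the TATA box on the gene's strand, between 40 and 20 bases before the start was present in 49 varied genes (2.60%, 95% Wilson interval 1.97 to 3.41%) and 22 steady genes (0.894%, 0.591 to 1.35%), against 1.10% of kept genes and 2.09% of all genes in the table. GGGCGG, the GC box, on either strand, was present in 52.9% of varied and 69.2% of steady genes, against 65.1% of kept genes and 35.9% of all. CCAAT, on either strand, was present in 36.3% and 39.0%, against 38.8% of kept genes and 37.9% of all. The intervals count genes, which are not independent, and levels differed between both sets, since weak genes were more often varied. The part of level in these shares was not tested.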

How the data were processed

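RNA was sequenced from 3 wild type laser-captured pools. Per the submitters' processing notes and the series' design text, reads were mapped to GRCm38 with TopHat2 2.0.9 and counted with HTSeq in intersection-strict mode, and DESeq2 was used. No source used here gives the strand setting. The authors deposited a normalized count per gene and library (a signal scaled by 1 size factor per library), and no source used here says over which libraries the factors were set. Dividing by the lowest nonzero value of a library gave whole reads for 100% of values within 0.01, and 8947136 to 12504790 reads a library. Size factors thus remain those of the authors, and any choice of factor shifts a whole library. From these values level, SD, range with a pseudocount of 1, exact Poisson and Wilson 95% intervals (counting error only) and TPM (merged exon lengths, GENCODE M21) were computed with Python 3.11.15, pandas 2.3.3 and scipy 1.17.1, and TMM factors with edgeR 4.0.16 in R 4.3.3. No test was run. The range calculation was tested on simulated data. Promoters came from RefSeq (GRCm38.p6), 27025 genes.

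The members and gene lists were chosen with earlier results of these data known. Named genes are Pax6, Krt5, Trp63, the 20 of highest TPM, 25 factors, 25 receptors and 20 ligands, in each list the 6 of highest mean and 4 of widest range, the widest and steadiest genes, and members at 0. Outside that rule, and after their values were seen, 4631405K08Rik, Alas2, Atoh1, Bfsp2, Ckb, Col6a1, Dsg3, En2, Fos, Gap43, Ihh, Irx5, Klf1, Krt10, Krt12, Lrp6, Map1b, Mip, Muc1, Pax7, Pea15a, Prdm13, Slc2a1, Slc4a1, Sox2, Sprr1a, Trp73, Ttn, Tubb2b and Tyrp1 were also picked, as were the lists of dorsal brain, sensory ganglion and neutrophil granule genes. Some genes are not reported here.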

Additional observations from a re-analysis of the deposited data

How the results depend on the processing

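No paired analysis was possible because 1 group was used. With TMM scaling, scaling to all reads or scaling to reads without haemoglobin genes, 2956 to 2973 genes were varied and 2987 to 3218 steady, against 2968 and 3165. The number of varied genes followed the filter on low values, with 9024 at a mean above 0 and 521 at a mean of at least 100, since weak genes vary most. A pseudocount of 5 gave 2605. Leaving out 1 library gave 1712 to 1960 varied and 6107 to 6566 steady genes, as a range over fewer libraries can only narrow. Lists without 1 library were added after the data were seen. With no length scaling 13 of the 20 genes and 15 of the 25 transcription factors of highest level were shared with the order in TPM. Summed list levels per library moved by more than 1 SD in 2 comparisons with another scaling, both of the TGF-beta receptor list, and by less in 448. The highest or lowest library of the endothelium sum and of several regulator sums changed with the scaling. With a promoter window of 100 bases 48 motif shares moved outside their interval and 12 did not, as a shorter window holds fewer matches. Weak genes are limited by depth, and with 3 pools an SD is itself uncertain.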

Other observations

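Imprinted genes, which are expressed from 1 parental allele and are known for high levels in embryonic tissue, had a median level of 26.4 TPM, against 12.7 TPM over all kept genes. Of 21 kept members 2 were varied, Dlk1 and Rtl1, which lie in 1 imprinted cluster (2, 0 and 1 without 1 library, in the order of replicates 2, 3 and 4). That share of 9.52% lay below the 20% of all kept genes but above the 4.32% of genes at 10 to 100 TPM. Steady was 1 member (4.76%), against 21.3% of all kept genes and 28.6% of genes at 10 to 100 TPM. The median range was 1.54-fold, against 1.34-fold over all kept genes. Mest had 17033, 22216 and 19349 normalized counts in replicates 2, 3 and 4 at 1197 TPM. Nnat, which encodes the membrane protein neuronatin, had 18071, 23180.3 and 14441 at 2431 TPM. H19, a long noncoding RNA beside Igf2, had 4612, 4839 and 6651. Replicate 3 was highest for Mest and Nnat. Dlk1, a Notch-like membrane protein of progenitor cells, had 652, 401 and 823, and Rtl1, a gene derived from a retrotransposon, had 34.2, 14.6 and 31.8, with replicate 3 lowest in both.

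Genes of pericytes and smooth muscle, the contractile cells around vessels, had a median level of 12.3 TPM, near the 12.7 TPM of all kept genes. Of 8 kept members 4 were varied (50%, against 20% of all kept genes; 1, 2 and 4 without 1 library), and the summed level was 2678, 1858 and 2337. Acta2, smooth muscle actin, had 498, 55.02 and 471, lowest in replicate 3. Rgs5, a pericyte regulator of G protein signals, had 68.4, 12.0 and 10.3. No hypothesis was tested on these values.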
